A study of Capra hircus with 3 samples.

Results

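The circadian clock genes were followed in goat (Capra hircus) longissimus dorsi, the loin muscle that runs beside the backbone, at 3 postnatal stages. The members were the 10 table entries whose product text names ARNTL, CLOCK, PER1, PER2, PER3, CRY1, CRY2, NR1D1, NR1D2 or DBP, out of 24689 entries in all. Each name matched 1 entry, and the symbol that RefSeq gives for each gene number was the same as the product text. RNA sequencing libraries came from a kid at 2 months, a youth at 9 months and an adult at 24 months, with 1 library per stage and no treatment or genotype named. The sources used here do not give sex, breed, the hour of sampling or whether a library came from 1 animal or a pool. With 1 library per stage there was no test between stages and no p-value, and every value describes these libraries. Stage, animal and hour of sampling cannot be told apart for any clock gene.

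The clock is a feedback loop that runs in nearly all mammalian cells. ARNTL (also called BMAL1) and CLOCK form a pair that switches on the PER, CRY, NR1D and DBP genes, the PER and CRY proteins then block that pair, and the NR1D receptors repress ARNTL. ARNTL transcript therefore peaks at the opposite time of day to DBP, NR1D1 and the PER genes in mouse tissues, skeletal muscle included, where the clock is known for timing fuel use and glucose uptake.

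Levels are FPKM as the authors deposited them, that is fragments corrected for the length of the gene and for the mapped total. Whole reads behind the values were worked out from their smallest steps, from totals of 15829474, 14920689 and 18399385 for kid, youth and adult. Intervals in parentheses are exact 95% intervals of those reads and cover counting error only. A ratio is called beyond counting error where its interval left out 1. A gene was counted as 1.5-fold apart on the scale of log2(FPKM + 1), which understates the difference of low genes, among the 12121 genes that averaged 1 FPKM or more. All 10 clock genes passed that filter, from PER3, the lowest on average, to PER1, the highest. The tissue label gives longissimus dorsi, but the protocol label speaks of mammary tissue. The muscle fibre markers, 6 of 6 found, summed to 51339, 60075 and 69929.5 FPKM in kid, youth and adult, and all 3 libraries had CSN2, CSN3 and LALBA, which encode milk proteins, at 0.

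In the adult library ARNTL was higher and PER1, PER2 and NR1D2 were lower than in the youth library, each by at least 1.5-fold. These were 4 of the 10 clock genes, 1 higher and 3 lower, where 10.9% of all genes tested were that far apart, 5.4% higher and 5.45% lower. Between youth and kid only ARNTL was 1.5-fold apart, on the lower side, where 5.27% of all genes were apart, 1.5% higher and 3.77% lower. Between adult and kid PER1, PER3 and NR1D2 were 1.5-fold lower and 0 clock genes were 1.5-fold higher, where 9.24% of all genes were apart, 2.6% higher and 6.64% lower. At 2-fold there remained ARNTL on the higher side and PER1 and NR1D2 on the lower side between adult and youth, against 1.01% and 1.07% of all genes. Between adult and kid there remained PER1 on the lower side, where 1.22% of all genes were, with 0 clock genes on the higher side, where 0.536% were. Between youth and kid 0 clock genes were 2-fold apart, against 0.421% of all genes on the higher and 0.627% on the lower side. With a pseudocount of 5 in place of 1, ARNTL was no longer 1.5-fold apart in any comparison, at -0.36 between youth and kid and 0.58 between adult and youth, while PER1 was so in both adult comparisons. The youth library enters the first and the second of these comparisons, so a high or low level there moves both, in opposite directions. How all genes split between higher and lower depended on the scaling. With median-of-ratios scaling the split was 268 higher and 309 lower for youth against kid, in place of 182 and 457, and 526 and 549 for adult against kid, in place of 315 and 805. With the libraries brought to their mean FPKM sum it was 501 and 824 for adult against youth, in place of 655 and 661.

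**Figure D1:**
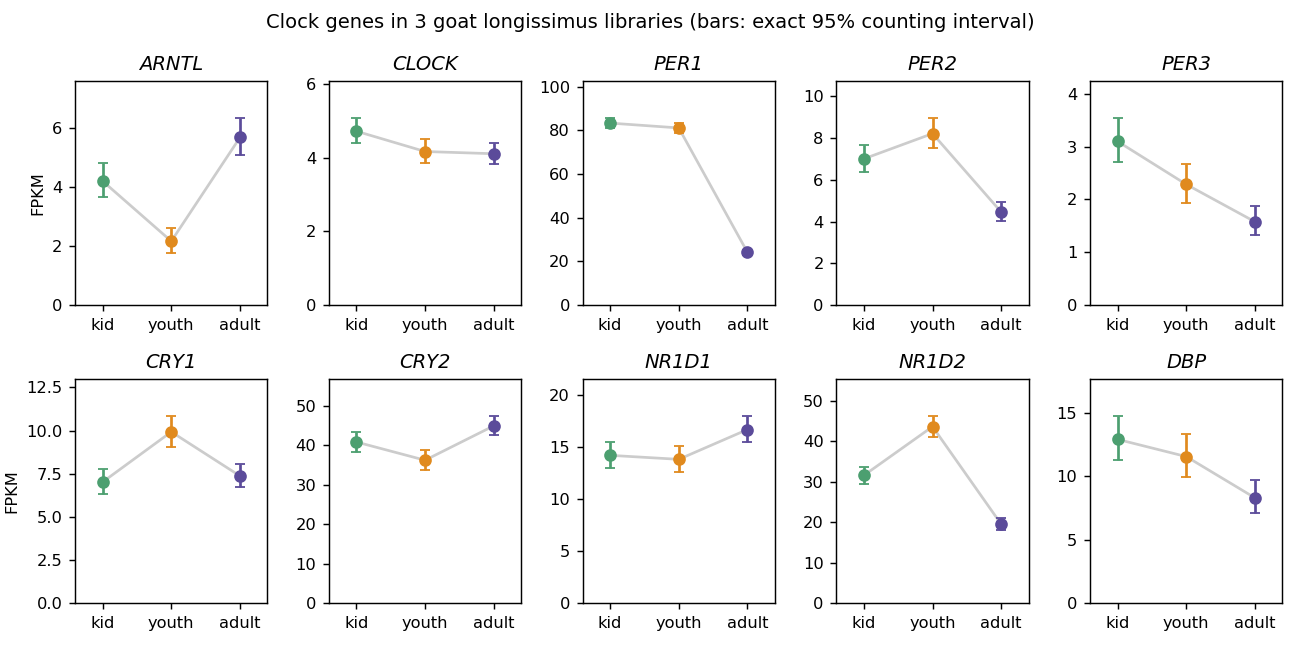
FPKM of each of the 10 clock genes (vertical axis, from 0) in the kid, youth and adult libraries (horizontal axis, 1 library each), with bars for the exact 95% counting interval and grey lines that only join the points. PER1 was at 83.3 and 81.1 FPKM in kid and youth and at 24.2 FPKM in adult, while ARNTL was lowest in youth at 2.17 FPKM and highest in adult at 5.69 FPKM.

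The activators differed from each other. ARNTL (gene 102169495), a basic helix-loop-helix factor of the activator pair, stood at 4.21 FPKM in kid (212 reads), 2.17 in youth (103 reads) and 5.69 in adult (333 reads). The youth library was the low one, and the intervals of the 3 libraries did not overlap. ARNTL was 1.94-fold lower in youth than in kid (1.53 to 2.48), 2.62-fold higher in the adult library than in youth (2.10 to 3.30) and 1.35-fold higher in adult than in kid (1.13 to 1.61). Its log2(FPKM + 1) difference of 1.08 between adult and youth was at place 103 from the highest among the 12121 genes. CLOCK (gene 102175105), its partner, stood at 4.71, 4.16 and 4.10 FPKM in kid, youth and adult. The CLOCK levels of youth and adult overlapped, with a ratio of 0.986 (0.886 to 1.10), and both were slightly below kid, adult by 1.15-fold (1.04 to 1.27) and youth by 1.13-fold (1.02 to 1.26). The size of these gaps to kid depended on the scaling. On the log2(FPKM + 1) scale they were -0.16 (adult) and -0.15 (youth), beside -0.10 and -0.08 for all genes. With median-of-ratios scaling each gap was -0.07.

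Among the repressors the PER genes were all lowest in the adult library. PER1 (gene 102173685), which hormones and nerve signals can switch on within the hour in other mammals, stood at 83.3 FPKM in kid (5951 reads), 81.1 in youth (5460 reads) and 24.2 in adult (2008 reads). The kid and youth libraries were alike within counting error, at a ratio of 0.973 (0.938 to 1.01), and the adult library stood apart. The adult level of PER1 was 3.35-fold below youth (3.19 to 3.53) and 3.44-fold below kid (3.27 to 3.63). The PER1 differences of -1.70 and -1.74 on the log2(FPKM + 1) scale were at places 22 and 24 from the lowest among the 12121 genes.

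PER2 (gene 102178971), a scaffold of the repressor complex, had 7.005 FPKM in the kid library, 8.21 in youth and 4.46 in adult. Adult was below the other libraries, 1.84-fold below youth (1.61 to 2.11) and 1.57-fold below kid (1.37 to 1.81), and youth was 1.17-fold above kid (1.04 to 1.33). PER3 (gene 102178645), the member least needed for rhythm in mice, had 3.10 FPKM in the kid library, 2.28 in youth and 1.58 in adult. Its level was highest in kid and lowest in adult, 1.96-fold below kid in adult (1.58 to 2.45), 1.45-fold below youth in adult (1.14 to 1.84) and 1.36-fold below kid in youth (1.10 to 1.68). Summed over the family, the PER genes held 93.4, 91.6 and 30.2 FPKM in kid, youth and adult. PER1 made up 89.2%, 88.5% and 80.0% of these sums.

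The cryptochromes, which bind the activator pair and block it, did not follow the PER genes. CRY1 (gene 102188477) had 7.01 FPKM in the kid library, 9.92 in youth and 7.36 in adult. Youth was the high library for CRY1, 1.42-fold above kid (1.23 to 1.62), with adult 1.35-fold below youth (1.18 to 1.53), while the kid and adult levels overlapped at a ratio of 1.05 (0.914 to 1.21). CRY2 (gene 102183085) stood at 40.9, 36.2 and 45.0 FPKM, with youth lowest and adult 1.24-fold above youth (1.14 to 1.35). Between adult and kid the CRY2 ratio was 1.10 (1.01 to 1.19).

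NR1D1 and NR1D2 (REV-ERB alpha and beta), nuclear receptors that repress ARNTL, went separate ways. NR1D2 (gene 102172867) stood at 31.6 FPKM in kid (880 reads), 43.7 in youth (1147 reads) and 19.5 in adult (631 reads). Youth was highest and adult lowest, with no overlap of intervals. NR1D2 was 1.38-fold higher in youth than in kid (1.27 to 1.51), and its adult level was 2.24-fold below youth (2.03 to 2.47) and 1.62-fold below kid (1.46 to 1.80). Across the 3 libraries the order of NR1D2 was therefore the reverse of that of ARNTL, as was the order of PER2.

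NR1D1 (gene 102176826) had 14.2 FPKM in the kid library, 13.8 in youth and 16.7 in adult. Adult was the highest library for NR1D1, by 1.21-fold over youth (1.07 to 1.36) and 1.17-fold over kid (1.05 to 1.32), and kid and youth overlapped at a ratio of 0.973 (0.856 to 1.11). NR1D1 lies next to THRA, a thyroid hormone receptor gene, and in human and rat a THRA transcript runs antisense into the end of NR1D1. The sources used here do not say whether counting used strand, so reads from a shared end could not be told apart. THRA was at 61.7, 61.6 and 63.6 FPKM in kid, youth and adult.

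DBP (gene 102178299), a leucine zipper factor of the clock's output that binds D-boxes, stood at 12.9 FPKM in kid (217 reads), 11.5 in youth (183 reads) and 8.29 in adult (162 reads). Adult was the low library, 1.39-fold below youth (1.12 to 1.73) and 1.56-fold below kid (1.26 to 1.92), and kid and youth overlapped at a ratio of 0.895 (0.731 to 1.09). On the log2(FPKM + 1) scale the adult to kid difference of DBP was -0.58, just short of the 1.5-fold line, and that of PER2 was -0.55.

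**Figure D2:**
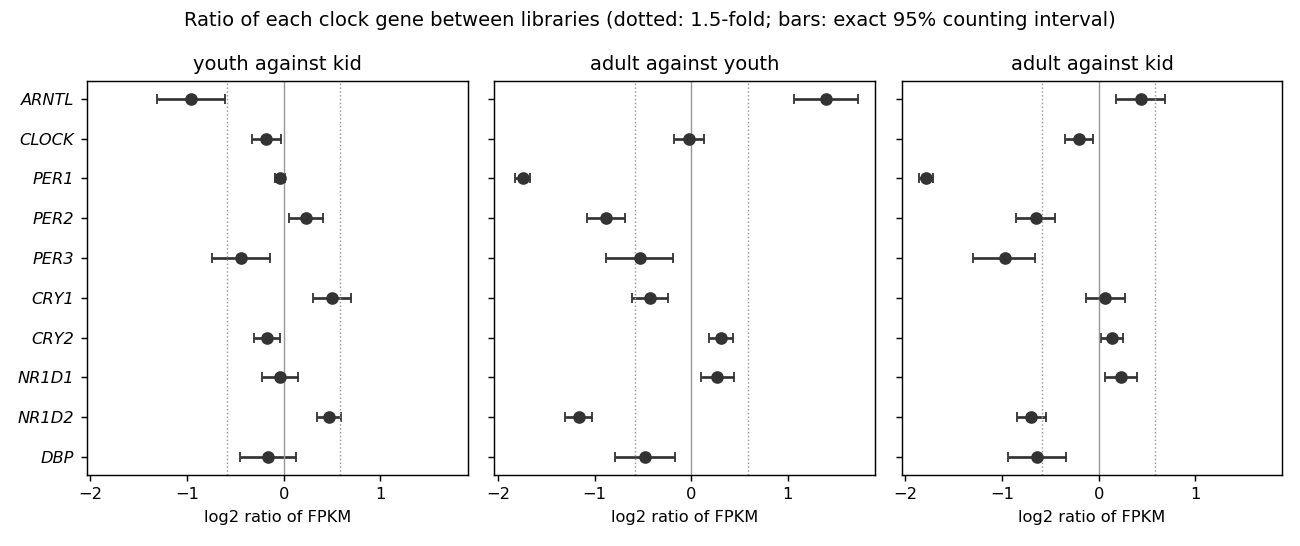
Log2 ratio of FPKM between libraries (horizontal axis) for each clock gene (vertical axis) in the 3 comparisons, with bars for the exact 95% counting interval and dotted lines at 1.5-fold of the plain ratio. ARNTL was below 0 for youth against kid and above 0 in both adult comparisons, where PER1, PER2, PER3, NR1D2 and DBP were below 0.

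Counted over the 10 genes, adult against youth gave 3 higher and 6 lower beyond counting error, against 22.3% and 27% of all genes. Adult against kid also gave 3 higher and 6 lower, against 16.7% and 34.6% of all genes. Youth against kid gave 3 higher, PER2, CRY1 and NR1D2, and 4 lower, ARNTL, CLOCK, PER3 and CRY2, against 11.6% and 26.9% of all genes. These counts and shares are for the values as deposited, without rescaling. On the log2(FPKM + 1) scale the youth to kid differences of CLOCK and CRY2 were -0.15 and -0.17. With median-of-ratios scaling they were -0.07 and -0.08. The median log2(FPKM + 1) difference of the 10 genes was -0.09 between youth and kid, where that of all genes tested was -0.08. It was -0.37 between adult and youth, beside -0.02 for all genes, and -0.36 between adult and kid, beside -0.10 for all genes.

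Levels within a library, compared per length, put PER1 first in kid and youth and CRY2 first in adult. In kid the order went on from PER1 with CRY2, NR1D2, NR1D1, DBP, CRY1, PER2, CLOCK, ARNTL and PER3. Neighbours in that order that did not differ beyond counting error were NR1D1 and DBP, CRY1 and PER2, and CLOCK and ARNTL. In youth ARNTL was last, not apart from PER3 (ratio of PER3 to ARNTL 1.05, 0.815 to 1.36), and DBP was not apart from CRY1. In adult ARNTL stood above PER2, CLOCK and PER3, and the neighbours DBP and CRY1 and the neighbours PER2 and CLOCK were not apart.

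A ratio of 2 clock genes within a library does not move when the whole library is rescaled. The ARNTL to DBP ratio was 0.326 in kid (0.269 to 0.396), 0.188 in youth (0.146 to 0.241) and 0.687 in adult (0.568 to 0.834). The ARNTL to PER2 ratio was 0.602 in kid (0.509 to 0.708), 0.264 in youth (0.212 to 0.327) and 1.28 in adult (1.10 to 1.49). Both ratios were lowest in youth and highest in adult, without overlap of intervals. The ratio of ARNTL to NR1D1 was 0.297 in kid (0.252 to 0.350), 0.158 in youth (0.126 to 0.195) and 0.342 in adult (0.299 to 0.390), so that youth was lowest while kid and adult overlapped. From youth to adult the ratio of ARNTL to PER1 differed by 8.79-fold, to NR1D2 by 5.88-fold, to PER2 by 4.83-fold, to PER3 by 3.80-fold and to DBP by 3.65-fold. To CRY1 it differed by 3.53-fold, to CLOCK by 2.66-fold, to NR1D1 by 2.17-fold and to CRY2 by 2.11-fold. ARNTL itself enters each of these, so they are not separate observations.

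**Figure D3:**
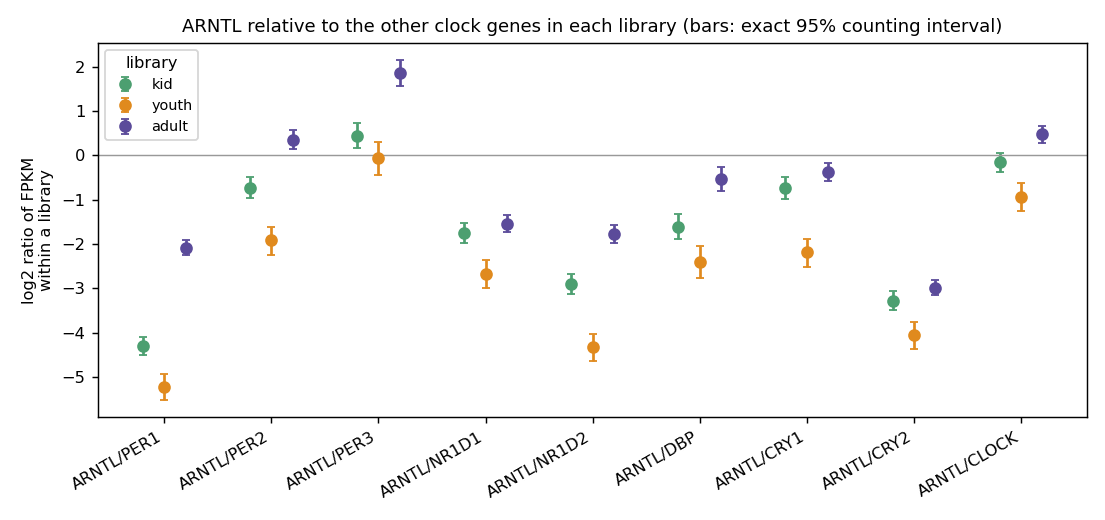
Log2 ratio of ARNTL to each other clock gene within a library (vertical axis) for the kid, youth and adult libraries, with bars for the exact 95% counting interval. The youth library is lowest for every partner and the adult library highest, with kid and adult overlapping for NR1D1, CRY1 and CRY2 and kid and youth for PER3.

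The other transcription factors of the clock loops were a list of 13 genes, of which 9 passed the filter. CIART (CHRONO), a further repressor of the activator pair, had 9.49 FPKM in the kid library, 10.6 in youth and 2.72 in adult. As with PER1, kid and youth overlapped and adult stood apart, 3.88-fold below youth (2.49 to 6.23) and 3.49-fold below kid (2.23 to 5.61). BHLHE40 (DEC1), which competes with the activator pair for its sites, was the most abundant of the list and highest in youth, at 43.4, 78.1 and 54.5 FPKM in kid, youth and adult. Between adult and youth 1 of the 9 genes, CIART, was 1.5-fold lower, beside 5.45% of all genes, and 0 were 1.5-fold higher, beside 5.4%. In that comparison 7 of 9 were below 0 with a median difference of -0.38, beside a median of -0.02 for all genes. Between adult and kid CIART and NFIL3 were 1.5-fold lower, beside 6.64% of all genes, with a median of -0.25, beside -0.10. Between youth and kid BHLHE40 was 1.5-fold higher, beside 1.5% of all genes, and the median was 0.08, beside -0.08. TEF and HLF, the nearest relatives of DBP, were named after their values were seen. In adult TEF was 1.41-fold below youth (1.30 to 1.53) and HLF 1.36-fold below youth (1.10 to 1.69).

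Of the kinases, ubiquitin ligases and cofactors that modify the clock proteins, 26 were tested and 0 were 1.5-fold apart in any of the 3 comparisons, where 5.27% to 10.9% of all genes were. Under 2 of the scalings 1 was 1.5-fold lower in adult than youth, where 824 and 782 of all genes were, in place of 661. Beyond counting error the adult library had 1 higher and 15 lower than youth (median -0.18), beside 22.3% and 27% of all genes, and 3 higher and 16 lower than kid (median -0.13), beside 16.7% and 34.6%. Between youth and kid 3 were higher and 4 lower (median 0.02), beside 11.6% and 26.9%. The most abundant was CUL4A, a scaffold of ubiquitin ligases, at 124, 133 and 137 FPKM in kid, youth and adult.

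Clock output genes known from many tissues and genes known to be rhythmic or clock-controlled in mouse muscle each had 12 of 13 members tested. DTX4 of the output list and MYOD1 of the muscle list were not matched to an entry. Among the output genes, between adult and youth 1 of 12 was 1.5-fold lower and 0 higher (median -0.30), beside 5.45% and 5.4% of all genes. The lower count was 2 or 3 with a pseudocount of 0.1 and under 3 of the scalings. All genes lower numbered 1045 with that pseudocount and 824, 627 and 782 under those scalings, in place of 661. At a pseudocount of 1 and without rescaling the lower gene was KLF10, a zinc finger factor that responds to glucose in liver. KLF10 was at 29.4 against 62.4 FPKM (2.13-fold, 1.99 to 2.27). The cell cycle inhibitor CDKN1A was at 65.9, 20.5 and 15.7 FPKM in kid, youth and adult, and the steroid-induced TSC22D3, the most abundant of that list, at 222, 215 and 181 FPKM. Between youth and kid CDKN1A alone was 1.5-fold lower (median -0.05), beside 3.77% of all genes, and between adult and kid CDKN1A and TSPAN4 were (median -0.30), beside 6.64%.

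In the muscle list 3 of 12 genes were 1.5-fold higher and 1 lower in adult than youth (median 0.06), beside 5.4% and 5.45% of all genes. Between adult and kid 3 were higher and 2 lower (median 0.12), beside 2.6% and 6.64%, and between youth and kid 1 was higher and 0 lower (median 0.02), beside 1.5% and 3.77%. Beyond counting error 6 were higher and 2 lower between adult and youth, 7 higher and 4 lower between adult and kid, and 5 higher and 5 lower between youth and kid. The shares of all genes in the same order were 22.3% higher and 27% lower, 16.7% and 34.6%, and 11.6% and 26.9%. The kinase gene PDK4, which closes the route from glucose into the citrate cycle, was at 1366, 1498 and 642 FPKM in kid, youth and adult. PPARGC1A, a coactivator of mitochondrial genes that also acts on ARNTL in mice, was at 26.1, 43.3 and 130 FPKM. TCAP, a Z-disc protein whose gene is a clock target in mouse muscle, was the most abundant at 3253, 2454 and 3489 FPKM.

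PER1 is also switched on outside the loop, by glucocorticoid hormones and by the cAMP and calcium signals that induce immediate early genes. Of 13 glucocorticoid-responsive genes tested, 6 were 1.5-fold lower and 1 higher between adult and youth, with a median of -0.57, beside 5.45% and 5.4% of all genes with a median of -0.02. Between adult and kid 6 were lower and 1 higher, with a median of -0.49, beside 6.64% and 2.6% with a median of -0.10. Between youth and kid 1 was lower and 1 higher, with a median of 0.02, beside 3.77% and 1.5% with a median of -0.08. FOXO1, a transcription factor of the fasting response, was at 54.3, 56.2 and 14.3 FPKM in kid, youth and adult, and ANGPTL4, an inhibitor of lipoprotein lipase, was the higher one, at 20.0, 31.1 and 47.9 FPKM. TXNIP, a brake on glucose uptake and the most abundant of the list, was at 579, 588 and 411 FPKM. TSC22D3, KLF9 and KLF15 stand in both this list and the clock output list. USP2 and NAMPT stand in both the clock output list and the list of kinases, ubiquitin ligases and cofactors.

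Of 19 immediate early genes tested, 10 were 1.5-fold lower and 3 higher between adult and youth (median -0.60), 13 lower and 1 higher between adult and kid (median -1.19), and 9 lower and 1 higher between youth and kid (median -0.51). The shares of all genes in the same order were 5.45% lower and 5.4% higher, 6.64% and 2.6%, and 3.77% and 1.5%. NR4A2, an orphan nuclear receptor, was at 18.7, 10.4 and 2.80 FPKM in kid, youth and adult, CSRNP1, a nuclear protein, at 32.7, 30.1 and 6.68 FPKM, and FOSL2, an AP-1 subunit, at 58.2, 37.3 and 14.0 FPKM. Of the others named, FOS was at 149, 61.0 and 35.7 FPKM and JUN, the most abundant, at 327, 362 and 245 FPKM. NR4A3 went the opposite way at 20.4, 58.2 and 124 FPKM, while JUNB (33.0, 11.3 and 37.1 FPKM) and EGR1 (27.6, 5.78 and 13.5 FPKM) were lowest in youth. The part of either list in the PER1 difference was not tested.

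**Figure D4:**
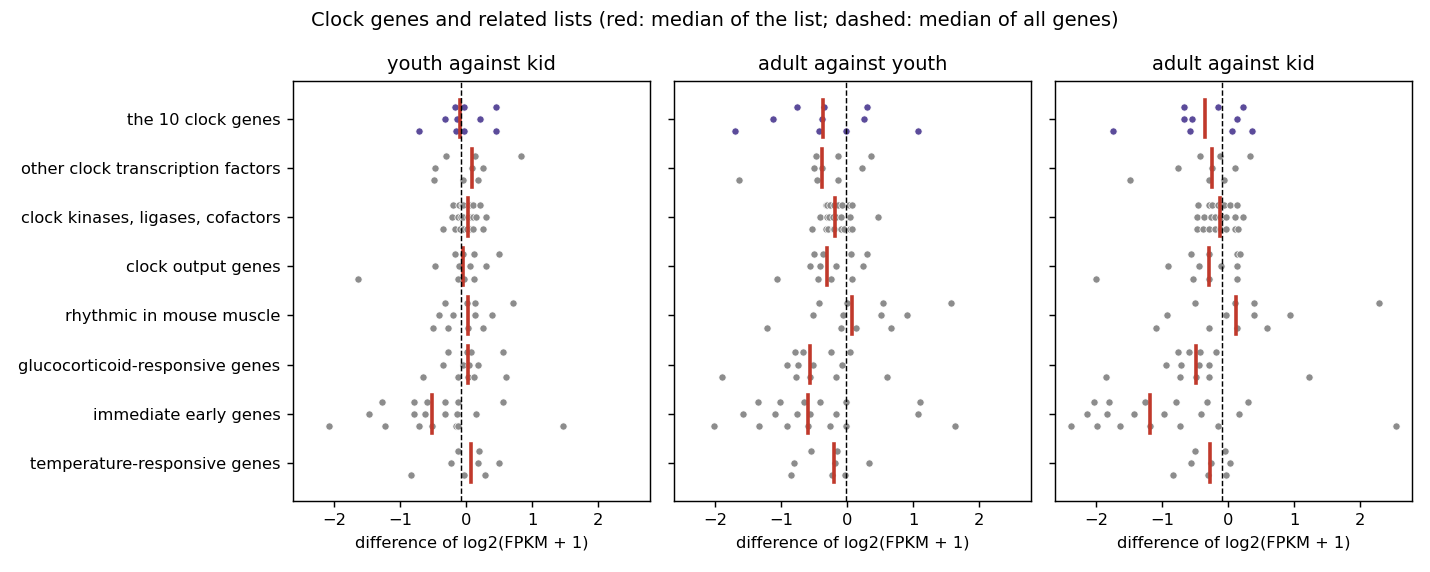
Difference of log2(FPKM + 1) (horizontal axis) of each tested gene in the 10 clock genes and in 7 related lists (vertical axis), for the 3 comparisons, with the list median in red and the median of all 12121 genes dashed. For adult against kid the median was -0.36 for the clock genes, -0.49 for the glucocorticoid-responsive genes and -1.19 for the immediate early genes.

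Markers of other cells in the muscle also differed between the libraries, and in bulk tissue fewer cells of a type and less RNA per cell cannot be told apart. The 5 macrophage markers summed to 36.7, 44.7 and 19.9 FPKM in kid, youth and adult. The 4 Schwann cell markers summed to 206, 120 and 78.5 FPKM, the 4 endothelial markers to 145, 124 and 119 FPKM, and the 4 fibroblast markers to 606, 632 and 505 FPKM. Members of a sum did not all move alike. Of the fibroblast markers 2 of 4 were lower in youth than in kid, DCN among them at 416, 370 and 341 FPKM. COL1A1 was higher in youth, at 113, 183 and 106 FPKM. The 5 adipocyte markers summed to 247, 98.6 and 111 FPKM, the 3 smooth muscle markers to 192, 131 and 200 FPKM, the 4 T cell markers to 5.57, 7.78 and 4.67 FPKM and the 3 satellite cell markers to 3.40, 3.34 and 4.72 FPKM. Lower in adult than in youth were 5 of 5 macrophage, 4 of 4 fibroblast, 4 of 4 T cell and 3 of 4 Schwann cell markers. The count was 2 of 4 for endothelium, 1 of 5 for adipocytes and 0 for smooth muscle and satellite cells. These counts took no account of counting error. The T cell markers were low, CD2 among them at 0.961 FPKM in youth and 0.850 in adult. Between these 2 libraries the median difference of all genes was -0.02. Of the red cell markers 2 of 4 were found, with HBM at 0 and ALAS2 at most 0.0276 FPKM. The part of these cells in the clock gene differences was not tested.

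The genes most like ARNTL and DBP across the 3 libraries were taken by the distance between their log2 ratios of FPKM, among 6834 other named genes averaging 5 FPKM or more. For ARNTL the nearest were SLC2A4, the insulin-responsive glucose transporter, at a distance of 0.11 and with 87.5, 46.3 and 113 FPKM in kid, youth and adult, then C4H7orf49, ICA1, SPAG8 and the light chain gene MYL3, up to a distance of 0.20. No gene lay within 0.1 of ARNTL. For DBP the nearest were TUBB, PTPN14, CAND1, NFIB and TRIM2, at distances of 0.01 to 0.02, and 78 genes lay within 0.1. With only 3 libraries this likeness is a description of 2 ratios per gene.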

How the data were processed

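The authors deposited 1 table of FPKM with 1 column per stage, matched to the libraries by the letter in each title. The submitters' processing notes name FastQC, TopHat2 and DESeq with neither version nor role. The sources used here do not give the genome build, annotation, counting method, strand use or the handling of multiply mapped reads. No coordinates were used other than to find neighbouring genes. RefSeq's goat gene table (ARS1.2) gave symbols and neighbouring genes, and 21743 entries matched. Matching by product text added 3 list genes and left out 2.

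FPKM ratios of a gene were ratios of whole numbers, and library totals, whole reads and lengths were recovered from them with Python 3.11.15, numpy 2.4.6 and scipy 1.17.1. Reads came out whole for 16054 of 16054 entries detected in 3 libraries and for 1157 of 1157 detected in 2, with a tolerance of 5e-05 and 6e-10 for rounding. The 1655 detected in 1 library were not resolved. Where reads and length share a factor, fewer reads are returned and the interval is wider. For a 1 kb gene, 1 read equals 0.0632 (kid), 0.0670 (youth) or 0.0543 FPKM (adult). The steps were tested on simulated reads.

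Differences were of log2(FPKM + 1) at a mean of at least 1 FPKM. Ratios have exact 95% binomial intervals. No test between stages was possible with 1 library each. The 10 members, 7 lists (111 genes) and tests were chosen with earlier results of these data known. Of the 111 list genes, 100 were matched to an entry and 94 passed the filter. From each list the text names the most abundant gene and up to 4 genes per comparison at least 2-fold apart. It also names the 5 genes nearest to ARNTL and to DBP. Other names were chosen after their values were seen. Tried alternatives were 2 pseudocounts, 2 filters and 4 scalings.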

Additional observations from a re-analysis of the deposited data

How the results depend on the processing

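No paired analysis was possible because each stage had 1 library, and leaving out a replicate was not possible for the same reason. Of 180 differences of the 10 clock genes under 6 alternatives, 171 stayed within their counting interval and 9 moved beyond it. None that was 1.5-fold apart turned its direction. The number of clock genes 1.5-fold apart depended on the pseudocount and the filter, and so did the share of all genes. For youth against kid the number was 0 in place of 1 with a pseudocount of 5 and 0 at a mean of at least 5 FPKM, which leaves out ARNTL. The share of all genes apart was then 1.34% and 3.90% in place of 5.27%. For adult against youth 2 clock genes were apart in place of 4 with a pseudocount of 5, PER1 and NR1D2. The share of all genes was 4.15% in place of 10.9%. For adult against kid 5 clock genes were apart in place of 3 with a pseudocount of 0.1 and with the libraries brought to their mean FPKM sum, PER2 and DBP joining. With a pseudocount of 5 there was 1, PER1. The shares of all genes under these 3 settings were 15.1%, 10.1% and 3.23% in the same order, in place of 9.24%. In that comparison PER3 fell short with quantile normalization (-0.52) and NR1D2 with median-of-ratios scaling (-0.56). The youth to kid difference of NR1D1 changed sign under 3 scalings and the adult to youth difference of CLOCK under 2, within counting error. That of PER1 between youth and kid, -0.04, changed sign under 2 and at 0.05 with median-of-ratios scaling lay beyond its counting interval. With a pseudocount of 5, the log2 ratio of ARNTL to DBP was -0.96 in kid and -1.21 in youth in place of -1.61 and -2.41. That to NR1D1 was -1.06, -1.39 and -1.02 in kid, youth and adult in place of -1.75, -2.67 and -1.55, and that to PER2 was -0.38 and -0.88 in kid and youth in place of -0.73 and -1.92. Over all listed genes the number 1.5-fold apart stayed within 1.5 times its value under all 8 alternatives, as did 155 of 168 counts of single lists. Depth limits ARNTL in youth and PER3 in adult most, with 103 and 132 reads.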

Other observations

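NPAS2, which can stand in for CLOCK as the partner of ARNTL in mice, was below the filter and was named after its values were seen. It had 1.17 FPKM in the kid library, 0.504 in youth and 1.01 in adult, and was 2.32-fold lower in youth than in kid (1.18 to 4.82) and 2.00-fold higher in adult than in youth (1.02 to 4.14). RORA, a receptor that activates ARNTL, had 13.9 FPKM in the kid library, 14.8 in youth and 13.3 in adult, and its intervals included a ratio of 1 in all 3 comparisons.

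Of 8 temperature-responsive genes tested, 2 were 1.5-fold lower between adult and youth (median -0.20). There was 1 lower between adult and kid (median -0.28) and 1 between youth and kid (median 0.08). The shares of all genes lower were 5.45%, 6.64% and 3.77% in the same order. In each comparison 0 were 1.5-fold higher, beside 5.4%, 2.6% and 1.5% of all genes. With median-of-ratios scaling 1 was higher between youth and kid, where 268 of all genes were, in place of 182. Between adult and kid 2 were lower with the libraries brought to their mean FPKM sum and with quantile normalization. All genes lower then numbered 964 and 514, in place of 805. The most abundant was the chaperone HSPA8, at 432, 493 and 422 FPKM in kid, youth and adult. The RNA-binding proteins CIRBP and RBM3, which follow the daily body temperature rhythm in mice, had 70.7, 60.2 and 58.8 FPKM (CIRBP) and 68.0, 62.5 and 55.0 FPKM (RBM3) in the same order.

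Of 19 genes next to the clock genes on ARS1.2, 13 were tested, and 0 of them were 1.5-fold apart in any of the 3 comparisons, beside 5.27% to 10.9% of all genes, which with 13 genes leaves little to tell. VAMP2, beside PER1, was at 27.2, 20.6 and 28.3 FPKM, and SPHK2, beside DBP, at 4.17, 3.80 and 5.87 FPKM in kid, youth and adult. The adult to youth difference of SPHK2 was 0.52 on the log2(FPKM + 1) scale, which understates the difference of low genes. On that scale it fell short of the 1.5-fold line.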
